A study of Mus musculus with 10 samples.

Results

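The 8 genes of the neutrophil lineage were described in RNA sequenced from spleen T cells of mice: the granule and maturation genes Camp, Cebpe, Chil3 and Fcnb, and the receptor genes Csf3r, Cxcr2, Fpr1 and Fpr2. These 8 genes stand among 20617 gene rows of the table, of which 20249 were tested. The genes were chosen by measured values, with earlier results of these libraries known. The row of values for each name was set along with that choice, and how it was found is not given here. A model that used levels over all 10 libraries, without regard to group, placed the 8 genes at the same rows. The 8 genes varied widely from library to library in both groups, and mostly in the same libraries. OVA 6 held the highest level of 7 of the 8 genes, PBS 5 and OVA 8 held the 2 lowest levels of 7 of the 8, and none of the 8 passed the test between the groups in a fit over all genes.

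Neutrophils are made in the bone marrow and, in the mouse, also in the red pulp of the spleen. Their granules are filled in stages: primary granule genes such as Mpo are read in promyelocytes, specific granule genes such as Ltf and Camp in myelocytes, and receptors such as Cxcr2 appear as the cell matures and is released to blood. T cells are not known as a main source of these transcripts.

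The study asked how experimental asthma acts on optic glioma in Nf1OPG mice, which carry 1 germline mutant and 1 floxed Nf1 allele with Cre driven by the GFAP promoter on a C57BL/6 background. Cre acts in neuroglial progenitors, so the spleen cells of both groups were Nf1 heterozygous and none of the groups was wild type. The OVA mice (5 libraries) received ovalbumin in aluminum hydroxide by intraperitoneal injection on days -14 and -7. They then received 4 intranasal doses on days 0 to 2, and the treatment fell at 4 to 6 weeks of age. The PBS mice (5 libraries) received PBS only. The sources used here name aluminum hydroxide for the OVA mice alone, so its part cannot be told apart from that of ovalbumin. The paper gives CD4 and CD8a kits for CD4+ and CD8+ T cells from spleen suspensions after red cell lysis. The sequenced cells are named CD3+ T cells, and the paper does not state whether these kits gave them. The age at which the spleens were taken is not given in the sources used here, and the labels do not say whether each library is 1 mouse.

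The libraries held 6835696 to 29915782 reads assigned to genes, with PBS 3 the shallowest and the other 9 at 14711683 or more. Values are normalized counts, that is, reads divided by 1 size factor per library, and 1 read was worth 0.626 to 2.77 normalized counts. In the deposited table the gene names run ahead of the values, so that the values of Camp and Cebpe lie 3 rows above their names, those of Chil3 4 rows, those of Csf3r and Cxcr2 5 rows, and those of Fcnb, Fpr1 and Fpr2 7 rows. A model of the row distance along the whole table gave the same 8 distances, with a probability of 0.967 for Cxcr2 and 0.992 or more for the other 7. All libraries carried T cell transcripts: the 8 T cell markers summed to between 72353 and 130856 normalized counts in PBS and between 86923 and 117386 in OVA, and Lck alone ranged from 17677 to 39280.

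In the mouse genome (GRCm38, GENCODE M21) Camp lies at chr9:109847379-109849617, Cebpe at chr14:54710360-54712174, Chil3 at chr3:106147554-106167564 and Fcnb at chr2:28076378-28084885, all on the minus strand. Csf3r lies at chr4:126024550-126044440 and Cxcr2 at chr1:74153989-74161246, both on the plus strand. Fpr1 and Fpr2 are neighbours on chromosome 17, at chr17:17876471-17883940 on the minus strand and chr17:17887824-17893952 on the plus strand. All 8 are protein coding. Fpr3 overlaps Fpr2 on the same strand, so reads there may be split between them, and Chil4, a near copy of Chil3, was listed at 7.87 normalized counts or less in every library.

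The upstream bases of Camp, Chil3 and Fcnb are shown because Camp and Chil3 had the most similar profiles among the granule genes and Fcnb had a flatter one. RefSeq (GRCm38.p6) gave a promoter for 7 of the 8 genes, all but Cebpe. The bases run 5′ to 3′ on the gene's strand and stop before the more upstream of the RefSeq and GENCODE starts. Capitals mark 2 motifs searched on both strands, TTNNGCAA (letters bound by C/EBP factors, N being any base) and GGAAGT (the core of ETS factors such as PU.1), both chosen after the sequences were seen.
Camp, chr9:109849618-109849706, minus strand: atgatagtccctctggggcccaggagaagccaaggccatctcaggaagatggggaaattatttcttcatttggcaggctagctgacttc
Chil3, chr3:106167565-106167814, minus strand: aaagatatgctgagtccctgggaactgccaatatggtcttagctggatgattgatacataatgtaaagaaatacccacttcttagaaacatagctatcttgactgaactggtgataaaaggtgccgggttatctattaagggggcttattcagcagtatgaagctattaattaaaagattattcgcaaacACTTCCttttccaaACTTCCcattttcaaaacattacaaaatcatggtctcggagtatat
Fcnb, chr2:28084886-28085128, minus strand: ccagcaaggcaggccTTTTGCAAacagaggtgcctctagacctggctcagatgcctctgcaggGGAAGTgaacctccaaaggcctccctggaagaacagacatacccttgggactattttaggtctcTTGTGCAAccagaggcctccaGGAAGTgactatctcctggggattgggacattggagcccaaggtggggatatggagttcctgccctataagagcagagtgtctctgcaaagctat
Fcnb carried the C/EBP letters at -235 and -123 and the ETS letters at -187 and -102, counted from the RefSeq start. Chil3 carried only the ETS letters, at -60 and -46, and Camp carried neither in the full 250 bases. Only 89 of these bases lie upstream of both annotated Camp starts, against 243 for Fcnb and 250 for Chil3. Among the receptors only Cxcr2 had a match, the ETS letters at -24. Of all 32851 promoters of 250 bases, 9.56% held the C/EBP letters and 19.7% the ETS letters, so a match is common and is given only as a description.

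Camp, the precursor of the cathelicidin antimicrobial peptide of specific granules, had the widest range of the 8. In the PBS libraries its normalized counts were 49.7 in PBS 1, 352 in PBS 2, 69.2 in PBS 3, 151 in PBS 4 and 20.8 in PBS 5. In the OVA libraries they were 5725 in OVA 6, 471 in OVA 7, 16.1 in OVA 8, 614 in OVA 9 and 1272 in OVA 10. Of the 5 OVA libraries, 4 lay above every PBS library, but OVA 8 was the lowest of all 10, and OVA 6 stood 355-fold above it. The group means were 128 ± 134 in PBS and 1620 ± 2339 in OVA (SD, n = 5 each), and without OVA 6 the OVA mean was 593 ± 520 (SD, n = 4).

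Chil3 encodes a chitinase-like protein (Ym1) that is secreted by maturing neutrophils and by alternatively activated macrophages. Its normalized counts in PBS 1 to 5 were 74.0, 574, 343, 317 and 51.4. In OVA 6 to 10 they were 4184, 658, 60.7, 454 and 1484. The order of libraries resembled that of Camp, with OVA 6 and OVA 10 on top and PBS 5, OVA 8 and PBS 1 at the bottom, and 3 of the 5 OVA libraries lay above all PBS libraries.

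Fcnb, the recognition molecule ficolin B of the lectin complement pathway, is read mainly in immature myeloid cells. It was measured at 46.8, 222, 210.5, 89.3 and 29.8 normalized counts in PBS 1 to 5. The OVA values were 292, 52.6, 13.3, 73.3 and 184 in OVA 6 to 10. PBS 2 and PBS 3 came just under OVA 6 here, and all 5 PBS values lay within the range of the OVA values.

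Cebpe encodes C/EBP epsilon, the transcription factor required for the late steps of granulocyte maturation and for specific granule genes. It was the flattest member, at 17.8, 65.4, 47.1, 11.8 and 17.1 normalized counts in PBS 1 to 5 and at 67.5, 16.9, 13.3, 18.0 and 31.5 in OVA 6 to 10. The highest library was only 5.70-fold above the lowest. PBS 2 and OVA 6 were almost level.

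Csf3r is the receptor for granulocyte colony-stimulating factor, carried from early granulocyte precursors onward. It stood at 115, 248, 77.5, 72.1 and 18.0 normalized counts in PBS 1 to 5. In OVA 6 to 10 it stood at 346, 113, 31.3, 108 and 125. OVA 6 and PBS 2 led again, and OVA 7, 9 and 10 lay within 108 to 125.

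Cxcr2, the chemokine receptor through which mature neutrophils leave the marrow, was the only member whose highest library was a PBS library. PBS 2 held 226 normalized counts and OVA 6 held 195. The other PBS libraries held 68.4 (PBS 1), 36.0 (PBS 3), 26.9 (PBS 4) and 6.32 (PBS 5), and the other OVA libraries 30.0 (OVA 7), 10.4 (OVA 8), 67.3 (OVA 9) and 38.6 (OVA 10). The 2 groups thus spanned nearly the same range.

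Fpr1 and Fpr2 are receptors for formyl peptides released by bacteria and mitochondria, and both were low. Fpr1 was at 18.7, 33.6, 2.77, 5.38 and 0 normalized counts in PBS 1 to 5, and at 86.2, 25.0, 0.948, 8.41 and 17.3 in OVA 6 to 10. Fpr2 was at 5.62, 26.7, 5.54, 5.38 and 1.80 in PBS 1 to 5, and at 129, 13.1, 0, 6.01 and 19.7 in OVA 6 to 10. Each rested on 3 or fewer reads in 3 libraries, and the count of 0 for Fpr1 in PBS 5 allows a level of up to 2.71 and that for Fpr2 in OVA 8 a level of up to 2.84. OVA 6 was the highest library for both, at least 31.8-fold over PBS 5 for Fpr1 and at least 45.3-fold over OVA 8 for Fpr2.

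**Figure D1:**
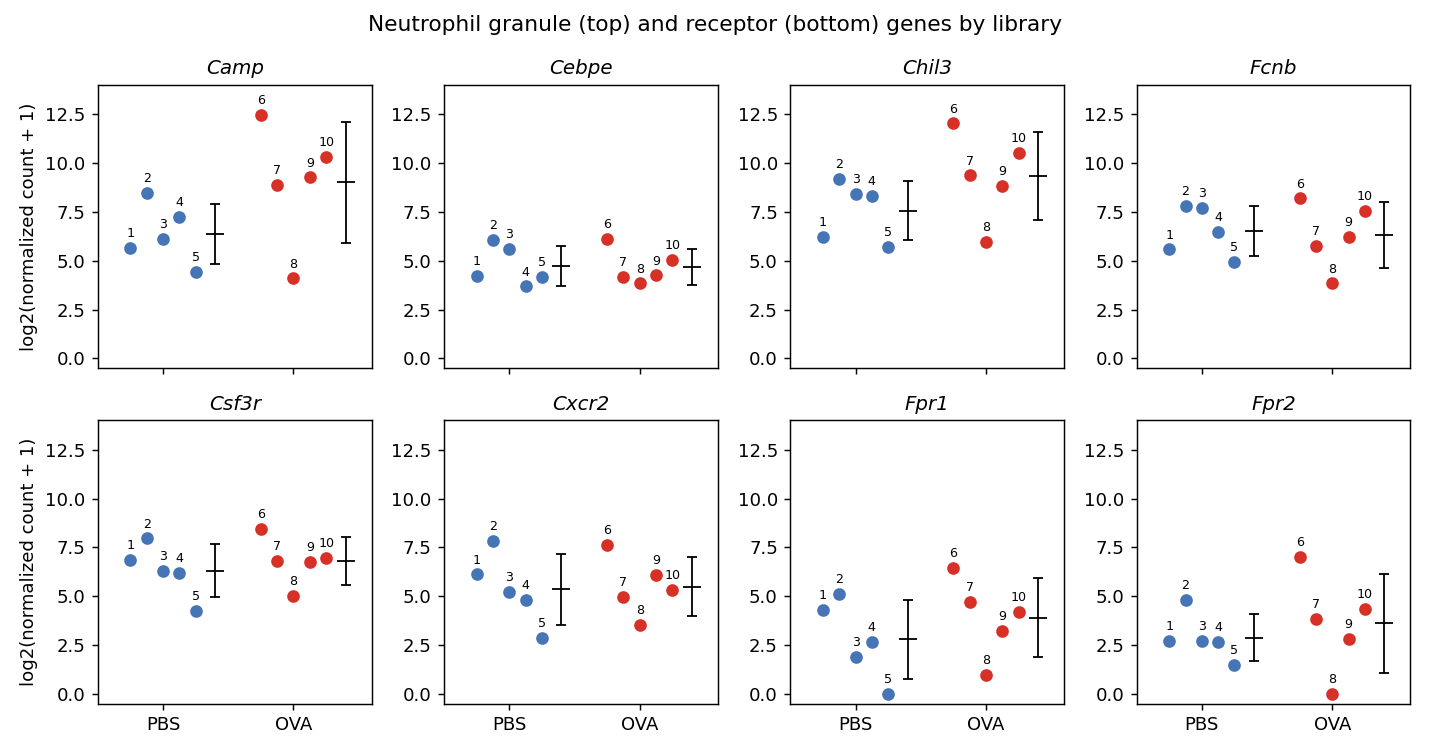
Level of each gene, as log2(normalized count + 1), in each PBS library (blue) and OVA library (red), with the replicate number above each point and the group mean ± SD (n = 5) as a black bar. Replicates 2 and 6 are the highest of their groups in every panel, replicates 5 and 8 are at or near the bottom, and the groups overlap in all 8 panels.

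Levels can be compared between genes only per length. Per kilobase of exon, the mean over the 10 libraries was 1153 normalized counts for Camp, 503 for Chil3, 90.6 for Fcnb, 34.7 for Csf3r, 24.7 for Cebpe, 23.1 for Cxcr2, 16.4 for Fpr2 and 15.0 for Fpr1. The neighbours Cebpe and Cxcr2, and Fpr2 and Fpr1, lay far closer to each other than the spread between libraries. In the PBS libraries alone Camp and Chil3 were level, at 169 and 167 per kilobase, and in the OVA libraries they were at 2137 and 838. Fpr1 (9.13) lay above Fpr2 (6.95) in PBS and below it in OVA (20.8 and 25.9). Without OVA 6 the mean was 442 for Camp and 273 for Chil3, and the order of these 2 held.

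The spread within groups was large for genes of these levels. On the log2 scale the within-group SD of Camp was 2.43, while the median over the 2196 genes within 1.5-fold of its level was 0.25, and 99.9% of those genes varied less. The same share was 99.7% for Chil3 (SD 1.92), 98.8% for Fcnb and between 97.6% and 98.4% for the 4 receptors. Cebpe varied less, with an SD of 0.96 against a median of 0.65 and 78.1% of its 1716 neighbours below it. In bulk RNA, fewer cells of a type and less RNA per cell cannot be told apart, so these values do not separate the number of neutrophil-lineage cells from their content.

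The comparison of OVA with PBS libraries asked whether asthma induction changed the genes. With limma on log2(normalized count + 1), 0 of the 8 genes had a Benjamini-Hochberg adjusted p under 0.05, where 0.00494% of the 20249 genes tested did (1 gene). At an unadjusted p under 0.05 there was 1 of the 8, Camp, against 9.77% of all genes (1978). The groups did not overlap for 0 of the 8 genes, against 1.78% of all genes. Since the genes were chosen with results of these libraries known, the p-values are given as part of the all-gene fit and not as independent evidence.

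Camp had the largest difference, 2.62 ± 1.16 (OVA minus PBS, log2 scale, ± SE), with a 95% interval of 0.14 to 5.09 and a limma adjusted p of 0.486. Chil3 followed with 1.77 ± 0.91, an interval of -0.19 to 3.73 and an adjusted p of 0.551. The other 2 granule and maturation genes had differences near 0: -0.07 ± 0.54 for Cebpe, with an interval of -1.24 to 1.09, and -0.21 ± 0.73 for Fcnb, with an interval of -1.77 to 1.36. Their adjusted p were 0.977 and 0.946.

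Among the receptors the limma difference was 1.11 ± 1.02 for Fpr1, 0.73 ± 1.01 for Fpr2, 0.49 ± 0.63 for Csf3r and 0.13 ± 0.83 for Cxcr2. Their adjusted p lay between 0.754 and 0.973, and each interval took in both signs. Fpr1 was 1.68 and Fpr2 0.24 with a pseudocount of 0.1, which put the receptor median at 0.37, and Fpr2 was 1.84 with edgeR and 1.88 with DESeq2. The median difference was 0.85 over the 4 granule and maturation genes and 0.61 over the 4 receptors, against 0.04 over all tested genes. The intervals are wide, and a p over the threshold does not show that the groups are alike.

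Single libraries set the size of these differences. Without OVA 6 the difference was 1.75 for Camp and 1.10 for Chil3, and the signs of Cxcr2 and Fpr2 turned, to -0.40 and -0.13. Without PBS 2 the difference was 3.14 for Camp and 0.75 for Cxcr2, and Cebpe and Fcnb turned to 0.25 and 0.12. Without OVA 8 Camp reached 3.85 and Fcnb 0.41. The receptor median was -0.02 without OVA 6 and 1.29 without OVA 8.

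**Figure D2:**
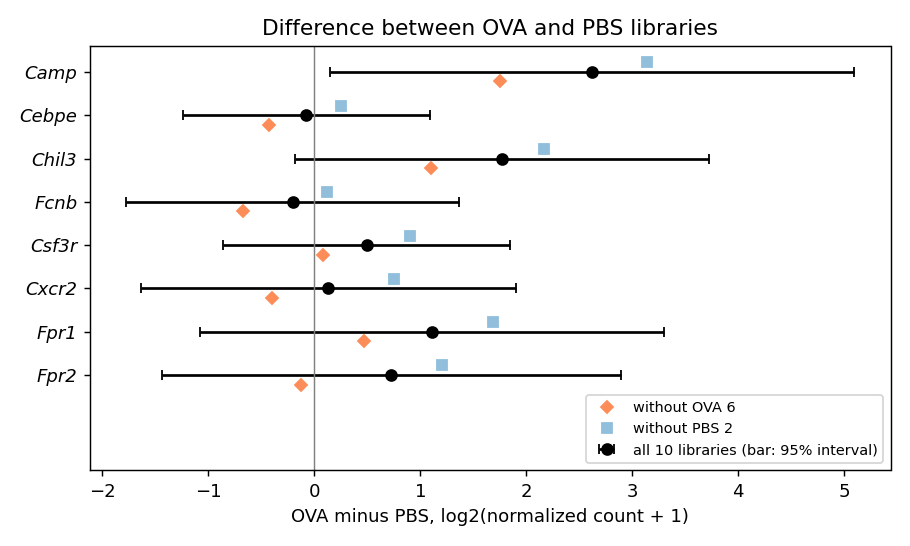
Difference between OVA and PBS libraries for each gene on the log2(normalized count + 1) scale, with the 95% interval of the limma fit over all 10 libraries (black), and the value without OVA 6 (orange) or without PBS 2 (blue). Only the interval of Camp lies above 0. OVA 6 and PBS 2 are the highest libraries of their groups for all 8 genes. All 8 values are therefore bound to be lower without OVA 6 and higher without PBS 2, and only the size of the move is informative.

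Count models on the recovered reads called none of the 8 either. With edgeR the lowest adjusted p was 0.316, for Camp (log2 fold change 3.62), where 0.00988% of all genes were called and 2 of the 8 genes had an unadjusted p under 0.05 against 9.06% of all. With DESeq2 the lowest was 0.101, again for Camp (log2 fold change 3.66 ± 1.15), where 0.894% of the 18678 genes with an adjusted p were called. There too 2 of the 8, Camp and Chil3, had an unadjusted p under 0.05, against 9.27% of all genes.

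Within a library, the granule genes and the receptors did not keep 1 ratio. The mean log2 level of the 4 granule and maturation genes minus that of the 4 receptors was 0.42, 1.45, 2.94, 2.35 and 2.67 in PBS 1 to 5. In OVA 6 to 10 it was 2.32, 1.96, 2.06, 2.41 and 3.14. The mean was 1.97 ± 1.03 in PBS and 2.38 ± 0.46 in OVA (SD, n = 5 each). The PBS libraries spanned the wider range, with PBS 1 and PBS 2 holding more receptor transcript for their granule transcript than any OVA library.

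The pairs of single genes did not all have the wider range in PBS. Against Cxcr2, the mean log2 ratio in PBS and OVA was 1.02 and 3.51 for Camp and 2.20 and 3.84 for Chil3, but 1.14 and 0.81 for Fcnb and -0.62 and -0.82 for Cebpe. For Camp against Cxcr2 the SD was 1.08 in PBS and 1.80 in OVA. PBS 2 and OVA 6 held almost as many Cxcr2 reads (263 and 260), but 409 and 7637 reads of Camp. There were 0.726 Camp reads per Cxcr2 read in PBS 1 and 5.60 in PBS 4, the lowest and highest of the PBS group, and 1.55 in OVA 8 and 33.0 in OVA 10, the lowest and highest of the OVA group. OVA 8 fell inside the PBS range, and the other 4 OVA libraries, at 9.13 or more, above it.

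The 4 granule and maturation genes did not move in step with each other. Chil3 minus Fcnb on the log2 scale lay between 0.65 and 1.82 in the PBS libraries and between 2.11 and 3.84 in the OVA libraries, with no overlap. In reads this was 1.58 to 3.55 of Chil3 per read of Fcnb in PBS and 4.57 to 14.3 in OVA. This was the only 1 of the 28 pairs of members whose groups did not overlap, a share of 3.57%, and among all pairs of tested genes the share was 2.06%, so a single such pair is near the background. Camp against Fcnb gave 0.329 to 1.69 reads per read in PBS and 6.91 to 19.6 in 4 OVA libraries, while OVA 8, with 17 and 14 reads, stood at 1.21.

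**Figure D3:**
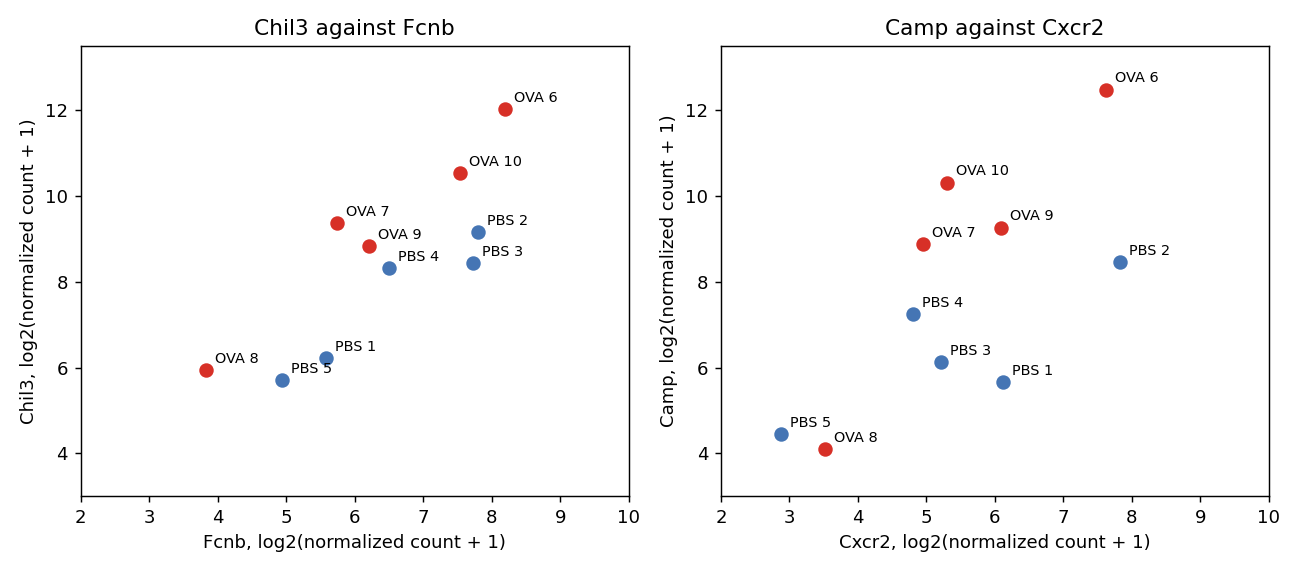
Chil3 against Fcnb (left) and Camp against Cxcr2 (right) in each library, both axes as log2(normalized count + 1), PBS libraries in blue and OVA libraries in red. At a given level of Fcnb the OVA libraries lie above the PBS libraries in Chil3, and PBS 2 and OVA 6 have nearly the same Cxcr2 but differ in Camp by 352 against 5725 normalized counts.

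Profiles over the 10 libraries were most alike among the receptors. Pearson's r on the log2 values was 0.81 to 0.96 over the 6 pairs of receptors, 0.55 to 0.96 over the 6 pairs of granule and maturation genes and 0.56 to 0.91 over the 16 mixed pairs. Camp and Chil3 had r = 0.96 (Spearman's rho 0.94), and Csf3r and Fpr1 also r = 0.96 (rho 0.94). The least alike were Camp and Cebpe, with r = 0.55. Without OVA 6 and OVA 8, the 2 libraries farthest from the median profile, the ranges became 0.72 to 0.93, 0.19 to 0.93 and 0.27 to 0.81. These are descriptions over 10 points that share size factors, and no p-value is given for genes chosen with results known.

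Of 13680 other placed genes with a mean of 10 normalized counts or more, the 10 most like the mean profile of the 8 members began with S100a9 (r = 0.99), Vpreb3, a gene of B cell precursors (r = 0.99), and S100a8 (r = 0.98). S100a8 and S100a9 are the calprotectin subunits, abundant in the cytosol of neutrophils. Wfdc21 (r = 0.97) and Hp, haptoglobin (r = 0.95), were also on the list of other neutrophil genes. C5ar1, the receptor of the complement fragment C5a, and Alox5ap, the activating protein of leukotriene synthesis, had r = 0.97 and 0.95, and Aldh3b1 had r = 0.97. Syk and Unc93b1, expressed broadly in myeloid and B cells, had r = 0.97 and 0.96. All 10 were highest in OVA 6, and r was between 0.92 and 0.98 for them without OVA 6 and OVA 8. The median r over all genes compared was 0.01.

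Other neutrophil genes were read from a list of 31, of which 27 could be placed in the table with a probability of 0.9 or more. None of the 27 was called by limma (lowest adjusted p 0.256), 7 (25.9%) had an unadjusted p under 0.05 against 9.77% of all genes, and 24 had a higher and 3 a lower mean log2 level in OVA, where 54.5% of all genes had a higher one. Their median difference was 0.47, against 0.04 over all tested genes. Of the 27, 20 were highest in OVA 6 and 16 were lowest in PBS 5 or OVA 8. Since many share a pattern over the libraries, these counts are not those of independent genes. Olfm4, 1 of the 27, had reads in OVA libraries only, so its direction was set by how it entered the test. Over the 10 libraries DESeq2 called 3 of the 27, the specific granule genes Ltf and Ngp and the surface antigen gene Cd177, and 0.894% of all genes. With OVA 6 left out DESeq2 called 0 of the 27 (adjusted p 0.307, 0.245 and 0.0503 for these 3) and 135 genes over the whole table. Cd177, and Olfm4 among the granule genes described next, are named after their values were seen.

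On the log2 scale the mean level of the primary, specific and mature classes had within-group SDs of 0.76, 0.84 and 0.77 in PBS and of 0.65, 1.86 and 1.29 in OVA, and the difference in spread was not tested. Mpo, myeloperoxidase of primary granules, ran from 4593 to 14364 normalized counts in PBS and from 9046 to 25803 in OVA. Prtn3, the primary granule protease 3, ran from 793 to 3405 and from 1109 to 3916. The 4 placed primary granule genes had a median difference of 0.31 and limma adjusted p of 0.517 or more, and the mean of the class had r = 0.87 with the members' profile.

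The most abundant specific granule genes had nearly the same order of libraries as Camp. Ngp, neutrophilic granule protein, was at 144 to 1133 normalized counts in PBS and at 28611 in OVA 6, 3006 in OVA 7, 131 in OVA 8, 2723 in OVA 9 and 6246 in OVA 10. Ltf, lactoferrin, was at 27.1 to 325 in PBS and at 10189, 1008, 50.2, 1111 and 2076 in OVA 6 to 10. As for Camp, 4 OVA libraries lay above all PBS libraries and OVA 8 within or under them.

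Lcn2, the siderophore-binding lipocalin, was at 16.2 to 417 in PBS and at 20.9 to 4483 in OVA. The limma difference was 3.57 ± 1.10 for Ltf (adjusted p 0.303), 2.90 ± 1.02 for Ngp (0.346) and 2.49 ± 1.11 for Lcn2 (0.486), and without OVA 6 it was 2.74, 2.07 and 1.66. The other 2 named genes of the class were flatter, with 0.46 ± 0.20 for Pglyrp1, a peptidoglycan-binding protein (0.476), and 0.62 ± 0.51 for Hp (0.717). Over the 8 placed genes of this class the median difference was 2.46, and it was not computed without OVA 6. All 8 had a higher mean log2 level in OVA, where 54.5% of all genes did. Olfm4, a specific granule protein, had 0 reads in all 5 PBS libraries and in OVA 8, and 27.0 normalized counts in OVA 6. It entered the test through reads in OVA libraries alone and could only come out higher in OVA.

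The 2 calprotectin genes, on the list of genes of mature cells, were again highest in OVA 6 and PBS 2. S100a8 was at 112 to 3193 normalized counts in PBS and at 136 to 17811 in OVA, and S100a9 at 51.4 to 1387 and at 43.6 to 6538. Slpi, a secreted inhibitor of neutrophil elastase, was highest in PBS 3 (2238) and OVA 6 (2151). The 15 placed genes of this class had a median difference of 0.43, and limma gave 1.36 ± 1.03 for S100a8 (adjusted p 0.688), 1.14 ± 1.04 for S100a9 (0.752) and -0.40 ± 0.44 for Slpi (0.801).

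**Figure D4:**
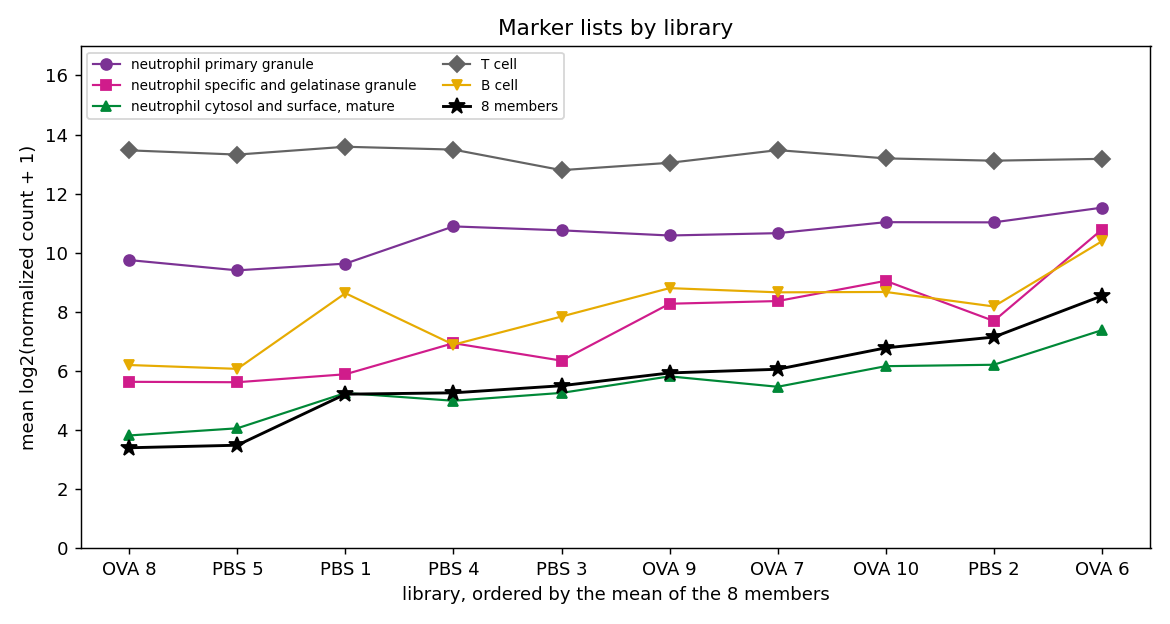
Mean log2(normalized count + 1) of the 8 members (black), 3 classes of other neutrophil genes, T cell markers and B cell markers in each library, with libraries ordered by the mean of the 8 members. The T cell line stays within a narrow band, and the lines of the 3 neutrophil classes and of the B cell markers are all highest in OVA 6.

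Markers of some other cells followed the members over the libraries, and which list did so most closely depended on the libraries used. The 4 B cell markers summed to 676 to 2330 normalized counts in PBS and to 700 to 2301 in OVA outside OVA 6, where they reached 6296, and both Cd79b (2381) and Cd79a (2069) were highest there. The 8 macrophage markers summed to 251 to 988 in PBS and to 371 to 1477 in OVA, with Csf1r at 127 to 670 and Cd68 at 80.3 to 379 over all libraries. The mean log2 level of these lists had r = 0.88 (B cell) and 0.74 (macrophage) with the members' profile, and the T cell list had r = -0.40. Without OVA 6 and OVA 8, r was 0.73 for the B cell, 0.89 for the macrophage and -0.33 for the T cell list. The part of other cells in the levels of the 8 genes was not tested.

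The 4 dendritic cell markers, highest in OVA 6, summed to 187 to 447 in PBS and 185 to 517 in OVA (Siglech 28.9 to 220, Flt3 21.5 to 181) and had r = 0.83 with the members. The eosinophil, basophil and monocyte lists had r = 0.67, 0.51 and 0.39. Without OVA 6 and OVA 8, r was 0.75 for the dendritic cell, 0.79 for the eosinophil, 0.50 for the basophil and -0.06 for the monocyte list. The 4 monocyte markers summed to 13355 to 17576 in PBS and to 13137 to 20070 in OVA, with Ly6c2, which T cells also express, at 9276 to 14446 and F13a1 at 289 to 3336. Eosinophil markers summed to 234 to 1296 in PBS and 485 to 1250 in OVA, highest in PBS 2, with Prg2 at 161 to 1152 and Epx at 11.1 to 307. Basophil and mast cell markers summed to 604 to 1941 and 877 to 1913, with Prss34 at 237 to 1381 and Mcpt8 at 92.0 to 506. No placed marker of any list was at 0 in all libraries.

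Erythroid markers went another way. They summed to 5253 to 30588 in PBS and 1775 to 12728 in OVA, with Car1, carbonic anhydrase 1, highest in PBS 3 at 28323 and Klf1 at 62.6 to 679, and all 6 had a lower mean in OVA. The platelet markers summed to 108 to 402 and 125 to 280 (Pf4 44.2 to 307, Itga2b 37.0 to 126). The proliferation genes summed to 2087 to 8333 and 4025 to 7306 (Top2a 963 to 3761, Mki67 230 to 1581). Only 2 of the 5 stromal markers could be placed, and they summed to 5.16 to 30.7 in PBS and 55.0 to 81.7 in OVA (Pdgfrb 5.16 to 76.9, Serping1 0 to 15.7), with r = 0.10 to the members.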

How the data were processed

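Gene expression was measured by RNA sequencing in 5 PBS and 5 OVA libraries of spleen CD3+ T cells, prepared with an Illumina TruSeq kit. The authors aligned reads with STAR 2.6.1d to the Ensembl release 99 mouse assembly (mm10 per the labels), counted them per gene in Partek Flow 9.0 and scaled the libraries with median-ratio size factors, 1 per library. The deposited signal is therefore a normalized count. Values came out as whole reads within 0.1 read for at least 99.9% of values in each library, and depth ran from 6835696 to 29915782 reads. A level that rests on 3 reads is 8.31 normalized counts in PBS 3 and 1.88 to 3.60 in the other libraries, and this limit covers counting error only. Whether the counting used strand, and any filter before deposit, is not given in the sources used here.

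Gene names in the deposited table are out of step with the values. A hidden Markov model over 20617 names set each row's mean level beside the level that the biotype, name class, length, exons and transcripts of nearby names (GENCODE M21) predicted, using no group, and estimated the distance, which reached 25 rows. It placed 98.0% of rows in a simulated table of 20571 rows exactly. The simulated rows came from the model's own placement, with the values of 20 names taken out. This share therefore does not show that the distances in the deposited values are right. Among the deposited rows, the share with a placement probability above 0.9 was 92.0%. Genes other than the 8 were used where the placement probability was 0.9 or more.

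Groups were compared with limma 3.58.1 on log2(normalized count + 1), with a trended prior, over 20249 genes with a mean of at least 1 and no covariate. Differences of low genes on this scale depend on the pseudocount. Adjusted p is by Benjamini-Hochberg over all tested genes, with 0.05 as the threshold. edgeR 4.0.16 (quasi-likelihood) and DESeq2 1.42.0 on the recovered reads were alternatives. Tested on simulated reads for 19849 genes, of which 200 carried a log2 change of 3, limma found all 200 and made 8 wrong calls. The simulated libraries had no swing shared between genes. Their spread was not set to that of the 8 genes, whose within-group SD was 0.96 to 2.43 on the log2 scale. The simulation therefore does not tell whether such a change in the 8 genes would be found. Whether the libraries come from separate mice is not stated, so p-values measure the spread between these libraries.

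The members and the lists were chosen with earlier results of these data known. The text names all 8 members, of the other neutrophil genes the 10 with the highest mean, the 10 genes with the highest r to the members, and for each other list up to 2 genes with the highest mean. Cd177 and Olfm4 fall outside this rule. Alternatives were other pseudocounts (0.1, 0.5), quantile or equal-total scaling, filters (none, 5), leaving out each library and other row distances. DESeq2 with OVA 6 left out was added after the data were seen.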

Additional observations from a re-analysis of the deposited data

Results flagged for a closer look

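Of 70 groups of 5 libraries looked at, 16 had a library far from the other 4. The values were normalized counts and their sums, without a log. A rate of 1 in 20 by chance (3.5 groups) holds for normally spread values. Counts like these are skewed, so the 16 cannot be read as an excess over chance. The measure is the gap from the extreme library to its neighbour as a share of the group's range, with 0.71 as the critical value. The 70 groups share libraries and are not independent.

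OVA 6 was the library that stood apart 11 times. It was far above the other OVA libraries for Camp (0.78), Fpr1 (0.717) and Fpr2 (0.847) among the 8 members. The same held for Ngp (0.785), S100a8 (0.841), Ltf (0.8), S100a9 (0.843) and Lcn2 (0.812), for the summed specific and gelatinase granule genes (0.782) and mature neutrophil genes (0.837), and for the summed B cell markers (0.714).

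PBS 2 stood above the other PBS libraries for Cxcr2 (0.718), Fpr2 (0.847), S100a9 (0.746) and the summed eosinophil markers (0.818). OVA 10 stood above the other OVA libraries for the summed erythroid markers (0.742).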

How the results depend on the processing

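None of the 8 genes was called under any alternative. The number of genes called over the whole table was 1, and it was 0 with a pseudocount of 0.1 and with quantile normalization, 2 with edgeR, 167 with DESeq2, 135 with DESeq2 and OVA 6 left out, and 0 to 135 when 1 library was left out (135 without PBS 5). DESeq2 called 3 of the other neutrophil genes, and 0 with OVA 6 left out. Scaling each library to the same total moved the median difference of all genes from 0.04 to 0.15.

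Leaving out 1 library gave 1.75 to 3.85 for Camp, -0.43 to 0.25 for Cebpe, 1.10 to 2.62 for Chil3, -0.68 to 0.41 for Fcnb, -0.0214 to 0.94 for Csf3r, -0.49 to 0.75 for Cxcr2, 0.41 to 1.84 for Fpr1 and -0.13 to 1.63 for Fpr2, so the direction of Camp, Chil3 and Fpr1 held and that of the other 5 did not. Cebpe was 0.0330 with each library at the same total. Fcnb was 0.0789 with edgeR and 0.0438 with DESeq2, and Cxcr2 was -0.12 and -0.10. DESeq2 with OVA 6 left out gave -0.17 for Csf3r and -1.01 for Cxcr2.

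Other row distances read other genes. With names as listed the difference was -0.10 for Camp, -0.26 for Chil3 and 0.58 for Fcnb. One row further up it was -0.27 for Camp, 0.41 for Cebpe, 0.37 for Fcnb and -0.11 for Fpr1, and a row further down -0.0111 for Camp and 0.54 for Fcnb. Leaving out 1 library gave 0.33 to 1.52 for the granule median, -0.02 to 1.29 for the receptor median and 0.03 to 0.66 for the granule minus receptor difference. Where a value changed and no cause is named, the cause was not tested. Depth limits Fpr1 and Fpr2 most, and PBS 3 is the shallowest library. The labels give no pairing between PBS and OVA libraries, so no paired analysis was run.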
